A study of Homo sapiens with 12 samples.

Results

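Immediate early genes are the first genes a cell switches on after a growth signal or a stress, before any new protein has to be made. MAP kinases and other signals act on factors already bound at their promoters, such as serum response factor with its ETS cofactors and CREB-family proteins at cAMP response elements, and the resulting short-lived transcription factors set the next wave of genes. The same genes are known to be induced when solid tissue is taken apart into single cells, and every library here came from cells that had been taken out of a tumour and sorted. The 10 genes described here were chosen by symbol: FOS, FOSB and FOSL1, JUN and JUNB, EGR1 and EGR3, ATF3, IER2 and DUSP1. All 10 were found among the 26475 gene symbols with counts, and all 10 were among the 15461 that had enough counts to be tested.

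The cells were SUM159PT, a human breast cancer line of basal, mesenchymal character, injected into female NOD scid gamma mice, 8 weeks old, hosts that lack T, B and NK cells but keep myeloid cells. Groups FMD_LO and FMD_HI came from mice given a fasting-mimicking diet in cycles of 4 days per week, and groups CTR_LO and CTR_HI from mice on standard diet, labelled untreated. Tumour cells were stained for human CD44 and CD24 and sorted as CD44-positive with little CD24 (CD24-low, LO, the stem-like fraction of the design) or with much CD24 (CD24-high, HI, its differentiated fraction). Each of the 4 groups had 3 libraries of polyadenylated RNA, all from 1 cell line. The labels do not say which libraries came from separate mice, so p-values measure the spread between these libraries, and in sorted bulk RNA fewer cells with a transcript and less transcript per cell cannot be told apart.

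Counted reads ran from 17736610 to 18579816 in FMD_LO, 29820825 to 47587142 in CTR_LO, 31903233 to 37779053 in FMD_HI and 29049144 to 32916552 in CTR_HI. On the first principal component of all genes, which held 57.4% of the variance, the 3 libraries of FMD_LO lay far from the rest. They also had the highest summed levels of leukocyte, fibroblast and endothelial markers. Leukocyte markers summed to 165 to 193 CPM in FMD_LO, against 22.1 to 37.6 CPM in CTR_LO, with 6 of 10 tested members higher, and fibroblast markers to 46796 to 69372 CPM, against 19838 to 35401 CPM, with 5 of 10 higher. Endothelial markers reached 92.9 to 134 CPM in FMD_LO, against 67.7 to 71.7 CPM in CTR_LO, with 2 of 9 higher. Markers of the tumour line summed to 13159 to 14231 CPM in FMD_LO, against 19475 to 19769 CPM in CTR_LO, with 5 of 10 lower. Of all genes, 12% were higher and 4.33% lower in FMD_LO than in CTR_LO. No marker of these lists was at 0 in all 12 libraries, and mouse reads were not separated from human ones here. Fibroblast markers summed to at least 13954 CPM in every group. Whether the marker counts came from host or tumour cells was not tested. Between FMD_HI and CTR_HI edgeR called 0 of the markers of these lists, and DESeq2 called 1. An unadjusted edgeR p below 0.05 was found for 9 of 39 tested, against 6.74% of all genes.

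Of the 10 genes, 8 had a promoter in the RefSeq table (GRCh38.p14), and the 250 bases before the start were searched on both strands for the letters of known control sites. The windows of 5 are printed, 5' to 3' along the gene's own strand, because they hold every kind of match found and belong to genes whose levels are followed below. Capitals mark TGACG, the core of the cAMP response element, also inside the full element TGACGTCA, the EGR-type site GCGNGGGCG, the CArG box of serum response factor and the TATA letters TATAAA.

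JUNB, chr19:12791236-12791485, plus strand:
JUNB: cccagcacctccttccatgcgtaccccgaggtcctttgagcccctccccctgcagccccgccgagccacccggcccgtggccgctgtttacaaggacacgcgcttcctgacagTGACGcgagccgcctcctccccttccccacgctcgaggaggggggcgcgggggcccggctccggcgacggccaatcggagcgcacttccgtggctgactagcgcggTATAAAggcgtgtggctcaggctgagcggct

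FOS, chr14:75278578-75278827, plus strand:
FOS: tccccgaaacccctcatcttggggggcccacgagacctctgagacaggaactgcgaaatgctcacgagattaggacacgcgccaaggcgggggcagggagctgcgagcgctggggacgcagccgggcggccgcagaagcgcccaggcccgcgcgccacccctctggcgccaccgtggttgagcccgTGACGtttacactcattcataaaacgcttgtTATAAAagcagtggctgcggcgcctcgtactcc

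EGR1, chr5:138465229-138465478, plus strand:
EGR1: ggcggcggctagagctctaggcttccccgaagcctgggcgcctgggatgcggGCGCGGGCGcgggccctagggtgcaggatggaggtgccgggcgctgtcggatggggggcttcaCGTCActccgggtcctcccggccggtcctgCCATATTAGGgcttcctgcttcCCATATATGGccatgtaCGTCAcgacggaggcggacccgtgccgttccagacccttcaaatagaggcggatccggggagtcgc

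IER2, chr19:13150161-13150410, plus strand:
IER2: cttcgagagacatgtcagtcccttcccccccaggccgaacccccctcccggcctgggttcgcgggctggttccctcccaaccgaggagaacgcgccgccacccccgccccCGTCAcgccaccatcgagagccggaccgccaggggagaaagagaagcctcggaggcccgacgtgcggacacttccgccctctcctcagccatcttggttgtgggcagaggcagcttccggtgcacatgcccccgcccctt

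DUSP1, chr5:172771196-172771445, minus strand:
DUSP1: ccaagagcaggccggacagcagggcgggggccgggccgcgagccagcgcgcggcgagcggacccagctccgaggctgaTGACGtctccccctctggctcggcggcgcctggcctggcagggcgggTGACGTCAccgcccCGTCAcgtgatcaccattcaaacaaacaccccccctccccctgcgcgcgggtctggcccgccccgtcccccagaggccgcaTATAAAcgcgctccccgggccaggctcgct

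TGACG was found in 7 of the 8 windows, all but that of ATF3, and in 21.2% of 35116 promoters searched alike. In FOS it began 64 bases before the start, in FOSB 60 and in JUNB 137. DUSP1 had 4 matches, of which 2 overlap on opposite strands within a full TGACGTCA 125 bases upstream, an element held by 1 of the 8 windows and 1.65% of all promoters. TATAAA stood 30 to 33 bases upstream in FOS, FOSB, JUNB and DUSP1, so in 4 of 8 windows, against 10.7% of promoters. EGR1 alone held CArG boxes, 2 of them, at 105 and 83 bases, where 1.16% of promoters hold any, and it alone held the EGR-type letters, which 8.41% hold. The AP-1 letters TGANTCA were in none of the 8 windows and in 6.57% of promoters. CCGGAA, an ETS core that is not capitalised, was in 2 of 8, FOSB and IER2, and in 14.5% of promoters. These matches describe letters in a window and were not tested as sites. Bases further upstream were not searched, so a gene without a match here may hold one there.

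Levels are given as CPM, counts divided by library sizes that were scaled by TMM, and compared between genes only per kilobase of exon. The 10 genes together took 1.24% to 1.79% of all counts in every library. Between 5 and 6 of them were among the 100 most abundant genes of each library, and none was among the top 10. Per kilobase and averaged over the 12 libraries, JUNB came first with 1169 ± 250 CPM per kb (SD), a level that 50 genes exceeded. DUSP1 followed with 898 ± 109 and FOS with 898 ± 128 CPM per kb, a pair whose order was not fixed, since DUSP1 was above FOS in 5 of 12 libraries. JUN had 674 ± 93.1 and EGR1 564 ± 86.8 CPM per kb, with JUN above EGR1 in 11 of 12. Below them FOSB had 329 ± 55.2, IER2 314 ± 72.2 and ATF3 292 ± 81.5 CPM per kb, 3 neighbours that changed places between libraries (FOSB above IER2 in 6 of 12, IER2 above ATF3 in 8 of 12). FOSL1, with 143 ± 41.2 CPM per kb, and EGR3, with 24.3 ± 7.25, closed the order in all 12 libraries.

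**Figure D1:**
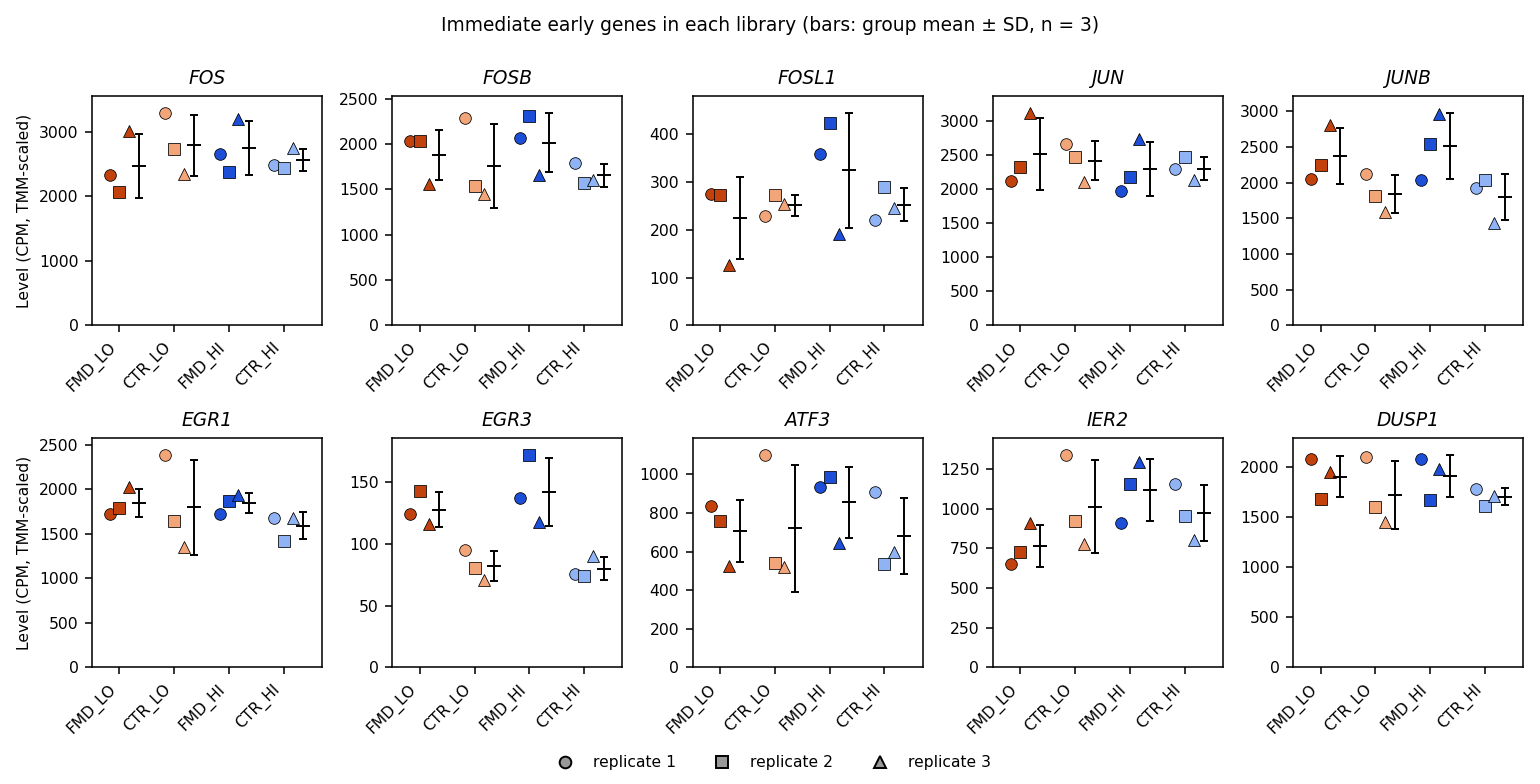
Level of each of the 10 genes in every library, in CPM on linear axes that start at 0, by group (FMD_LO, CTR_LO, FMD_HI, CTR_HI). Marker shapes give the replicate number and the black bars the mean ± SD of 3 libraries. EGR3 lies higher in all 6 fasting-mimicking diet libraries (116 to 172 CPM) than in all 6 control diet libraries (70.9 to 95.2 CPM), while most other genes overlap between diets.

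Between diets the clearest difference was in EGR3, and JUNB moved the same way by less. The remaining 8 genes were abundant in every library and did not pass the test in any comparison of diets. Fold changes are log2 with an approximate standard error from edgeR's quasi-likelihood fit of all 12 libraries, and p-values are adjusted by Benjamini-Hochberg over the 15461 genes. For FMD_LO over CTR_LO the test called 1 of the 10 genes, against 16.4% of all genes tested, and for FMD_HI over CTR_HI it called 0 of 10, against 0% of all genes. In that second comparison 2 of the 10 genes, and 1042 of all genes, had an unadjusted p below 0.05, and DESeq2 called 1 of the 10, EGR3, among 75 genes. The mean of both populations gave 2 calls among the 10 genes, both higher under the diet, against 11.1% of all genes called (7.74% higher). That fit took the CD24-low and CD24-high libraries of a diet as independent. Within the fasting-mimicking diet, libraries sharing a replicate number deviated together, as given below, so p-values over both populations may be too small. The 10 genes had a median log2 fold change of 0.05 in CD24-low and 0.25 in CD24-high cells, where the medians over all genes were -0.03 and -0.00.

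EGR3 and EGR1 encode zinc finger proteins that bind the same GC-rich site, and EGR3 lies on chromosome 8. EGR3 had 124, 143 and 116 CPM in FMD_LO, against 95.2, 80.3 and 70.9 CPM in CTR_LO. In the CD24-high cells it had 137, 172 and 118 CPM in FMD_HI, against 75.3, 74.2 and 90.5 CPM in CTR_HI. Every fasting-mimicking diet library was above every control library, in both populations. Of all genes, 19.7% were likewise apart and higher in CD24-low cells and 4.48% in CD24-high cells. The share apart in both populations was not counted. The log2 fold change was 0.64 ± 0.16 in CD24-low cells, with an adjusted p of 0.0138, and 0.83 ± 0.16 in CD24-high cells, with an unadjusted p of 0.000135 and an adjusted p of 0.333 (edgeR). Over both populations it was 0.74 ± 0.11, with an adjusted p of 0.0014. The CD24-low call was lost without FMD_LO replicate 2 (log2 0.55, adjusted p 0.0581) and without CTR_LO replicate 3 (0.55, 0.0606), whereas the call over both populations held without any one of the 12 libraries, with an adjusted p of at most 0.00598. Each library was left out alone, with the same-numbered library of the other population kept, and both populations were taken as independent. The populations did not differ in this response beyond their error (difference -0.19 ± 0.22, adjusted p 0.759). Leukocyte, fibroblast and endothelial markers were higher in FMD_LO than in CTR_LO, and their part in the EGR3 values there was not tested. In CD24-high cells leukocyte markers summed to 40.0 to 58.9 CPM in FMD_HI, against 28.7 to 45.3 CPM in CTR_HI. Of their 10 tested genes, 9 had a positive fold change (median log2 0.77), against 49% of all genes in this comparison. Fibroblast markers summed to 13954 to 17700 CPM, against 16106 to 30231 CPM, with 1 of 10 positive (median -0.86). The part of these markers in the CD24-high EGR3 values was not tested either.

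EGR1 (chromosome 5, 138465479 to 138469303), the family member best known as a sensor of growth signals, was the more abundant of the pair and did not pass the test between diets. It had 1725, 1792 and 2027 CPM in FMD_LO, against 2389, 1647 and 1356 CPM in CTR_LO, whose replicate 1 was the highest of all 12 libraries. FMD_HI had 1721, 1875 and 1936 CPM, against 1683, 1422 and 1676 CPM in CTR_HI, without overlap. The log2 fold changes were 0.04 ± 0.17 in CD24-low cells (adjusted p 0.901) and 0.21 ± 0.17 in CD24-high cells (0.928). EGR3 over EGR1, as a ratio of CPM within a library, was 0.0573 to 0.08 in FMD_LO, against 0.0398 to 0.0523 in CTR_LO, and 0.0609 to 0.0918 in FMD_HI, against 0.0447 to 0.054 in CTR_HI.

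JUN and JUNB belong to the AP-1 factors that can bind DNA in pairs of their own as well as with FOS proteins, and JUNB is known as the weaker activator of the pair. JUNB (chromosome 19, 12791486 to 12793315) had 2050, 2245 and 2803 CPM in FMD_LO, against 2121, 1806 and 1584 CPM in CTR_LO. In CD24-high cells it had 2038, 2545 and 2957 CPM in FMD_HI, against 1923, 2034 and 1429 CPM in CTR_HI. The CD24-low groups overlapped through 1 library on each side, and the CD24-high groups were apart by a narrow gap. JUNB was one of 3 genes of the 10, with EGR3 and EGR1, whose FMD_HI libraries all lay above CTR_HI, and 4.48% of all genes did so. Its log2 fold change was 0.37 ± 0.18 in CD24-low cells (adjusted p 0.187), 0.49 ± 0.18 in CD24-high cells (unadjusted p 0.0184, adjusted p 0.607) and 0.43 ± 0.13 over both (0.0487). That last call was lost without any one of 10 libraries, with adjusted p from 0.0505 without CTR_LO replicate 1 to 0.119 without CTR_LO replicate 3. It held without FMD_HI replicate 1 or CTR_HI replicate 2, and was lost with reads of either strand (0.0528) and with a replicate block (0.0675). The p-value of 0.0487 also took the libraries of both populations as independent.

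JUN (chromosome 1, 58780791 to 58784047), the main activating partner, did not pass the test in either population. It had 2121, 2322 and 3119 CPM in FMD_LO, against 2668, 2476 and 2111 CPM in CTR_LO, and 1973, 2182 and 2743 CPM in FMD_HI, against 2291, 2479 and 2136 CPM in CTR_HI. Its log2 fold change was 0.06 ± 0.17 in CD24-low cells (adjusted p 0.84) and -0.00 ± 0.17 in CD24-high cells (0.999). Within a library, the ratio of JUNB to JUN counts was 0.899 to 0.967 in FMD_LO, against 0.73 to 0.795 in CTR_LO. It was 1.03 to 1.17 in FMD_HI, against 0.669 to 0.839 in CTR_HI. The 6 fasting-mimicking diet ratios all lay above the 6 control ratios, although JUNB itself overlapped in CD24-low cells. This ratio was picked out of 7 pairs of genes after their values were seen, and it carries no test.

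**Figure D2:**
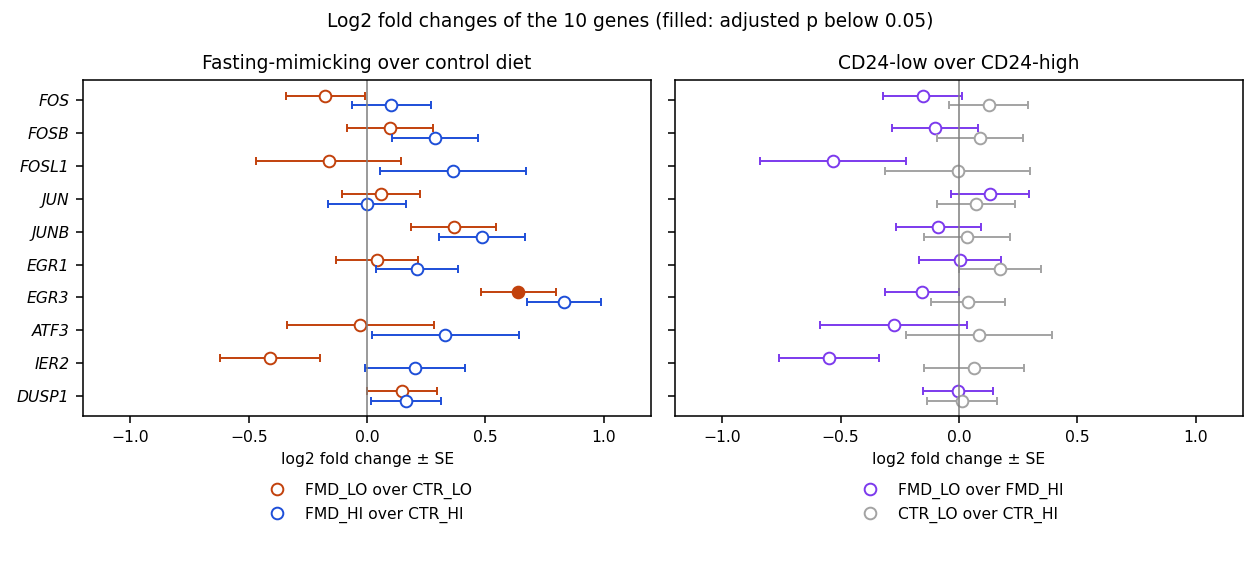
Log2 fold change ± standard error of the 10 genes for fasting-mimicking over control diet (left) and CD24-low over CD24-high (right), with filled points for an adjusted p below 0.05. EGR3 and JUNB lie to the right of 0 in both populations on the left panel, and FOSL1 and IER2 lie left of 0 on the right panel under the fasting-mimicking diet, with control diet points near 0.

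The FOS proteins form AP-1 only by pairing with JUN proteins. FOS (chromosome 14, 75278828 to 75282230) had 2322, 2063 and 3013 CPM in FMD_LO, against 3288, 2733 and 2340 CPM in CTR_LO, and 2649, 2382 and 3197 CPM in FMD_HI, against 2475, 2440 and 2748 CPM in CTR_HI. Groups overlapped in both populations, with log2 fold changes of -0.18 ± 0.17 in CD24-low (adjusted p 0.506) and 0.10 ± 0.17 in CD24-high cells (0.995). FOSB (chromosome 19, 45467996 to 45475179), a close relative of FOS, had 2038, 2032 and 1565 CPM in FMD_LO, against 2287, 1534 and 1452 CPM in CTR_LO, and 2069, 2312 and 1664 CPM in FMD_HI, against 1795, 1566 and 1599 CPM in CTR_HI. Its log2 fold changes were 0.10 ± 0.18 and 0.29 ± 0.18 in CD24-low and CD24-high cells (adjusted p 0.759 and 0.88). FOSL1 (chromosome 11, 65892049 to 65900545) encodes FRA1, a longer-lived FOS protein that is prominent in basal breast cancer. It had 276, 272 and 126 CPM in FMD_LO, against 228, 272 and 253 CPM in CTR_LO, and 358, 424 and 191 CPM in FMD_HI, against 221, 289 and 246 CPM in CTR_HI. The control libraries kept to a narrow range, while replicate 3 of both fasting-mimicking diet groups was the lowest of its population. FOSL1 fold changes between diets were -0.16 ± 0.31 in CD24-low (adjusted p 0.76) and 0.36 ± 0.31 in CD24-high cells (0.937).

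ATF3 (chromosome 1, 212565407 to 212620777), a leucine zipper factor induced by many stresses that can pair with JUN proteins, spread widely within groups. It had 836, 758 and 527 CPM in FMD_LO, against 1101, 542 and 520 CPM in CTR_LO, and 934, 988 and 645 CPM in FMD_HI, against 906, 534 and 599 CPM in CTR_HI. Replicate 1 of CTR_LO was the highest of the 12 libraries, and replicate 1 of CTR_HI lay within the range of FMD_HI. The groups thus overlapped in both populations (log2 -0.03 ± 0.31, adjusted p 0.962, and 0.33 ± 0.31, adjusted p 0.952). Biological coefficients of variation between replicates were 0.268 for ATF3 and 0.266 for FOSL1, the 2 highest of the 10 genes, and 0.167 for the median gene. Counting error was at most 2.19% for any of the 10 genes in any library, so the spread between libraries set their precision.

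IER2 (chromosome 19, 13150411 to 13154911) encodes a small nuclear protein of the immediate early response. It had 654, 724 and 912 CPM in FMD_LO, against 1339, 920 and 780 CPM in CTR_LO, and 907, 1154 and 1291 CPM in FMD_HI, against 1153, 956 and 801 CPM in CTR_HI. FMD_LO held the 2 lowest of the 12 values. The log2 fold change between diets was -0.41 ± 0.21 in CD24-low cells (adjusted p 0.208) and 0.20 ± 0.21 in CD24-high cells (0.967). DUSP1 (chromosome 5, 172768096 to 172771195) is the phosphatase that ends the signal by removing phosphate from p38, JNK and ERK kinases. It was the steadiest of the 10, with a ratio of 1.45 between its highest and lowest library. DUSP1 had 2084, 1686 and 1951 CPM in FMD_LO, against 2107, 1606 and 1455 CPM in CTR_LO, and 2086, 1678 and 1979 CPM in FMD_HI, against 1788, 1619 and 1719 CPM in CTR_HI. Its fold changes were 0.15 ± 0.15 (adjusted p 0.532) and 0.16 ± 0.15 (0.95).

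Between the populations of control tumours none of the 10 genes passed the test. The edgeR test of CTR_LO over CTR_HI called 0 of 10, against 0% of all genes, with 0 of the 10 and 91 of all genes at an unadjusted p below 0.05, and DESeq2 called 0 of all genes. All 10 genes overlapped between the groups, where 3.43% of all genes did not, and their log2 fold changes ran from -0.01 to 0.17 with standard errors of 0.15 to 0.31. Under the fasting-mimicking diet the same fit of FMD_LO over FMD_HI again called 0 of 10, against 14% of all genes (12.2% higher and 1.84% lower). An unadjusted p below 0.05 was found for 1 of the 10, against 26.2% of all genes, and DESeq2 called 0 of the 10. LO over HI averaged over both diets gave 0 of 10, against 7.53% of all genes. At an unadjusted p below 0.05 it had 0 of 10, against 18.1% of all genes, and DESeq2 called 0 of the 10.

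Sorted CD24-low and CD24-high libraries of the fasting-mimicking diet that share a replicate number also deviated together from their group means over all genes (correlations 0.444, 0.285 and 0.485), so the numbers were read as pairs within that diet. Those of the control diet gave 0.445, 0.522 and 0.037. With replicate number as a block within diet, a fit chosen after this was seen, FMD_LO over FMD_HI called FOSL1 and IER2 lower, 2 of 10 genes against 27.2% of all genes (10.3% lower). FOSL1 changed by a log2 of -0.54 ± 0.08, with an adjusted p of 5.15e-04. IER2 changed by -0.55 ± 0.08, with an adjusted p of 5.73e-04. In the fit without a block the same comparison gave -0.53 ± 0.31 for FOSL1 (adjusted p 0.308) and -0.55 ± 0.21 for IER2 (0.113). FOSL1 in FMD_LO was 0.77, 0.642 and 0.659 of its paired FMD_HI level, and IER2 0.721, 0.627 and 0.707. Both were thus lower in CD24-low cells in 3 of 3 pairs. In control libraries of the same number, which by the correlation of replicate 3 were not shown to be pairs, the ratios CTR_LO over CTR_HI were 1.03, 0.94 and 1.03 for FOSL1 and 1.16, 0.962 and 0.974 for IER2, with log2 fold changes of 0.00 ± 0.08 and 0.04 ± 0.08. Leaving out any one fasting-mimicking diet pair kept both calls, with adjusted p between 0.00443 and 0.0146. With the block kept among the fasting-mimicking diet libraries and dropped among the control libraries, 1 of 10 genes was called, against 16.8% of all genes. FOSL1 kept its call (-0.54 ± 0.12, adjusted p 0.0088), and IER2 lost its own (-0.55 ± 0.19, 0.0712).

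**Figure D3:**
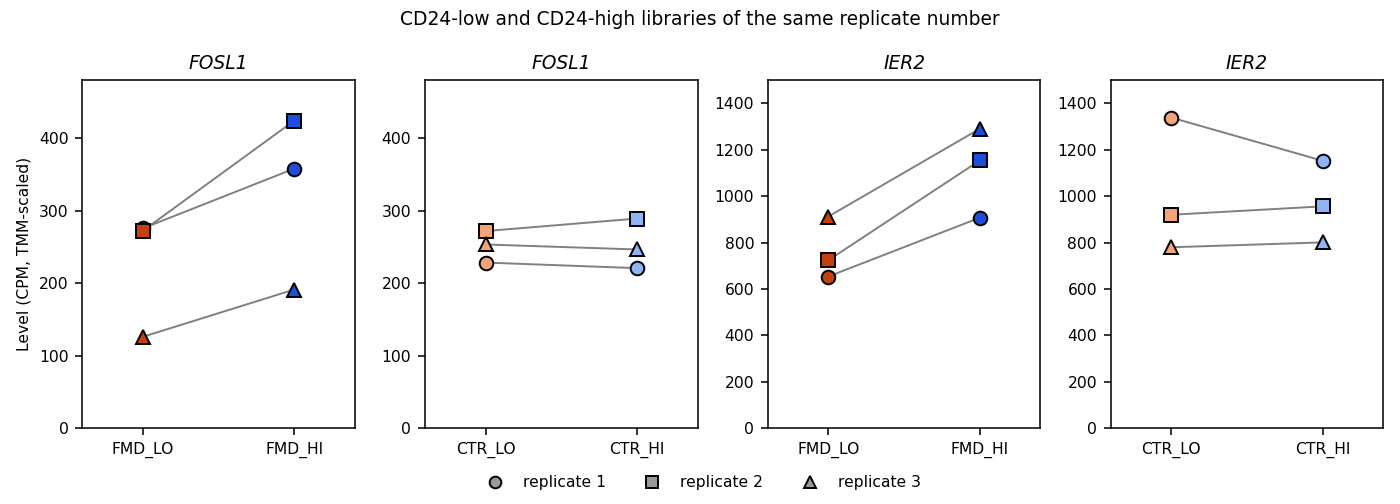
FOSL1 and IER2 in CPM in CD24-low and CD24-high libraries with the same replicate number, joined by lines, for the fasting-mimicking diet and the control diet on the same linear scale. All 3 fasting-mimicking diet lines climb to the CD24-high side for both genes (FOSL1 126 to 276 CPM in FMD_LO, 191 to 424 CPM in FMD_HI), while the control lines stay near level apart from IER2 in replicate 1.

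The remaining genes of the set did not pass the same blocked fit. ATF3 was -0.28 ± 0.10 (adjusted p 0.0506), with ratios of 0.895, 0.768 and 0.817, and FOS was -0.16 ± 0.11 (0.29). A blocked fit of the 6 fasting-mimicking diet libraries alone, with 2 residual degrees of freedom, called both of them beside FOSL1 and IER2, 4 of 10 against 40.2% of the 14619 genes it tested, at adjusted p 0.00229 for ATF3 and 0.0434 for FOS. JUN, JUNB, EGR1 and DUSP1 did not pass in either fit, nor did FOSB and EGR3. Averaged over both diets the block within diet called FOSL1 (-0.27 ± 0.06, adjusted p 0.00794) and IER2 (-0.25 ± 0.06, 0.0129), against 16.5% of all genes. Neither was called when the control libraries carried no block (adjusted p 0.0713 for FOSL1 and 0.328 for IER2, against 8.71% of all genes called). Tumour line markers were also lower on this side, summing to 13159 to 14231 CPM in FMD_LO and to 15462 to 18268 CPM in FMD_HI with 3 of 10 called lower. Fibroblast, leukocyte and endothelial markers were higher. The marker calls came from the fit without a block, where 12.2% of all genes were higher and 1.84% lower. Fibroblast markers summed to 46796 to 69372 CPM in FMD_LO and to 13954 to 17700 CPM in FMD_HI, with 5 of 10 called. Leukocyte markers summed to 165 to 193 CPM in FMD_LO and to 40.0 to 58.9 CPM in FMD_HI, with 6 of 10 called, and endothelial markers to 92.9 to 134 CPM and 56.2 to 87.6 CPM, with 5 of 9 called. Their part in the FOSL1 and IER2 values was not tested.

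Whether the diet response differed between populations was tested as an interaction, FMD_LO over CTR_LO minus FMD_HI over CTR_HI. Without a block, edgeR called 0 of the 10 genes, against 4.13% of all genes. An unadjusted p below 0.05 was found for 0 of the 10, against 15.2% of all genes, and DESeq2 called 0 of the 10. With the block within diet it called 2 of 10, against 11% of all genes (2.04% negative). The difference was -0.54 ± 0.11 for FOSL1 (adjusted p 0.0111) and -0.59 ± 0.12 for IER2 (0.00848). Leaving out fasting-mimicking diet pair 2 ended both calls (adjusted p 0.0709 and 0.0589), and leaving out pair 3 ended that of FOSL1 (0.0756). Leaving out any one control pair kept both calls, with adjusted p up to 0.0303 for FOSL1 and 0.0261 for IER2. With no block among the control libraries, whose pairing was not shown, neither gene passed (-0.53 ± 0.17, adjusted p 0.107, and -0.61 ± 0.27, 0.255), against 4.85% of all genes called.

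Libraries differed in which of the 10 genes stood high, and not only in how many. In replicate 3 of the fasting-mimicking diet, FOSL1 lay 1.01 log2 units below its 12-library mean in FMD_LO and 0.40 below in FMD_HI, and ATF3 0.44 and 0.15 below. The same 2 libraries had JUN 0.40 and 0.21 above its mean, FOS 0.21 and 0.29 above and JUNB 0.43 and 0.50 above. CTR_LO replicate 1, the deepest library, was the highest of the 12 for FOS, EGR1, ATF3, IER2 and DUSP1, and 8 of the 10 genes lay above their own means in it. CTR_LO replicate 3 had 1 of 10 above, and the mean deviation of the 10 genes was -0.30 there and 0.24 in CTR_LO replicate 1. These 2 replicates of 1 group thus differed by more than the group means of the set did.

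**Figure D4:**
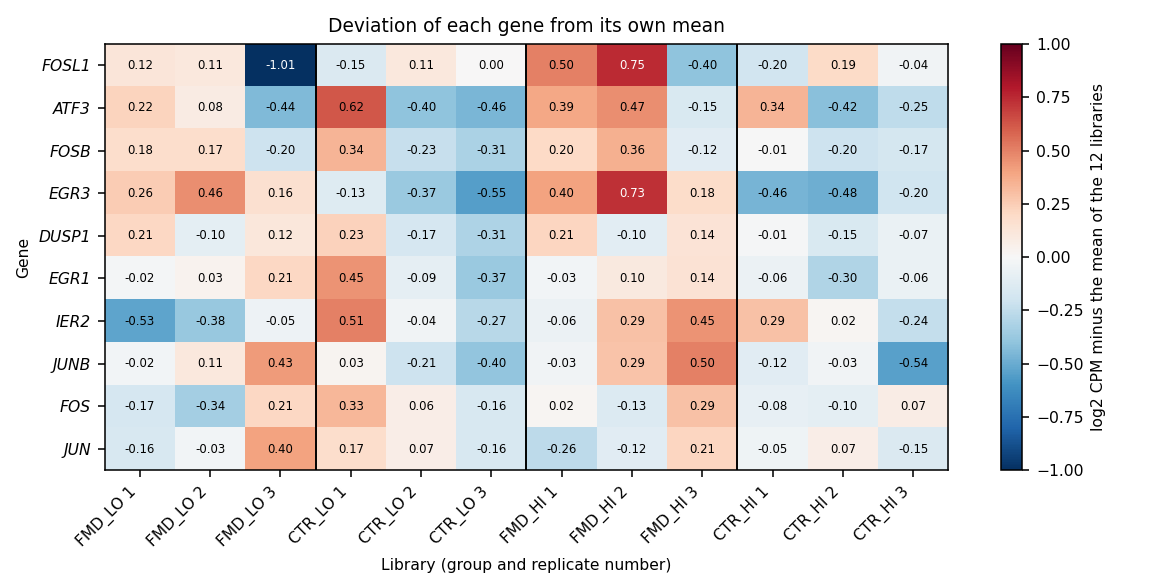
Deviation of each gene from its own mean over the 12 libraries, in log2 CPM, for every library (columns, by group and replicate number). FOSL1 and ATF3 are below their means in replicate 3 of both fasting-mimicking diet groups where FOS, JUN and JUNB are above theirs, and EGR3 is above its mean in all 6 fasting-mimicking diet libraries.

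By the root mean square difference of centred log2 CPM over the 12 libraries, the genes outside the set with profiles most like FOS were GTPBP10 (0.0811), KCTD18 (0.108) and POLI (0.111). JUN was nearest to LSM8 (0.0664), IDH3B (0.0799) and STK16 (0.0859), and EGR1 to GOLGA5 (0.0995), ARHGEF25 (0.119) and RCOR3 (0.121). All 9 were far less abundant than these members. Of genes outside the set, ATF3 was nearest to HEPH (0.159), then NR4A1 (0.195), another immediate early gene, and CDH2 (0.198). Among the 10 genes themselves FOS and JUN were nearest to each other (0.164), ATF3 was nearest to FOSB (0.186), and EGR1 and DUSP1 were nearest to each other (0.147). Among all genes tested, JUN held rank 239 in nearness to FOS, and FOS rank 530 to JUN. DUSP1 held rank 18 to EGR1, EGR1 rank 126 to DUSP1 and FOSB rank 2 to ATF3.

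Other genes of the pathway, 132 in 9 lists, were taken from lists drawn up with earlier results of these data known. Of the 132, 25 were higher and 3 lower in FMD_LO than in CTR_LO, where 12% of all genes were higher and 4.33% lower. In FMD_HI over CTR_HI edgeR called 0 of them, and DESeq2 called 4. An unadjusted edgeR p below 0.05 was found for 19 of the 132, against 6.74% of all genes. The RAS and MAP kinases upstream of immediate early genes had 10 of 20 members higher in FMD_LO and 0 lower, with a median log2 fold change of 0.43 over the list. MAP2K4, a kinase of the JNK and p38 arm, averaged 54.2 CPM in FMD_LO and 13.2 CPM in CTR_LO (log2 2.04 ± 0.13, adjusted p 1.17e-06, edgeR). MAPK7, also called ERK5, averaged 24.6 and 10.8 CPM in FMD_LO and CTR_LO (1.19 ± 0.16, adjusted p 1.93e-04). In CD24-high cells MAP2K4 differed by 0.10 ± 0.13 (adjusted p 0.985), and the difference between populations was 1.94 ± 0.19 (adjusted p 1.08e-04).

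Partners of the FOS and JUN proteins in the AP-1 and MAF families had 4 of 13 members higher in FMD_LO and 0 lower (median 0.43). JDP2, a JUN-binding repressor, had 96.8, 89.6 and 78.3 CPM in FMD_LO, against 22.0, 15.2 and 9.71 CPM in CTR_LO (2.49 ± 0.25, adjusted p 3.35e-05). BATF, an AP-1 factor best known in lymphocytes, averaged 6.21 CPM in FMD_LO and 0.14 CPM in CTR_LO. ATF2, which pairs with JUN at cAMP response elements, averaged 66.1 and 40.0 CPM (0.73 ± 0.13, adjusted p 0.00182). JDP2 and BATF moved with the leukocyte markers given above, whose part was not tested. Serum response factor and its cofactors had 0 of 6 and the EGR and NAB genes outside the set 0 of 4 called in FMD_LO over CTR_LO by edgeR, with 2 and 1 at an unadjusted p below 0.05 and 1 and 1 by DESeq2. Of all genes, 31% had an unadjusted edgeR p below 0.05 in that comparison.

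Brakes on ERK signalling were split, with 2 of 16 higher in FMD_LO and 2 lower (median 0.07). DUSP6, a cytoplasmic phosphatase specific for ERK, had 133, 134 and 138 CPM in FMD_LO, against 204, 243 and 270 CPM in CTR_LO (-0.83 ± 0.15, adjusted p 0.0018). It also stood lower in every FMD_HI library, with 142, 131 and 193 CPM, against 230, 253 and 237 CPM in CTR_HI, where the fold change of -0.63 ± 0.15 had an adjusted p of 0.351. DUSP5, the nuclear ERK phosphatase, averaged 393 CPM in FMD_LO and 611 CPM in CTR_LO (-0.63 ± 0.16, 0.0145), a call lost without CTR_LO replicate 1 (adjusted p 0.0608). DUSP16, which acts on JNK, was 1.37 ± 0.21 higher on the log2 scale (7.52e-04), and SPRED1, an inhibitor of RAF activation, 0.72 ± 0.14 (0.00281).

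Other immediate early genes had 4 of 34 members higher in FMD_LO and 0 lower (median 0.18). BTG1, an antiproliferative factor, averaged 1024 CPM in FMD_LO and 505 CPM in CTR_LO (1.02 ± 0.19, adjusted p 0.00264), and PLK3, a stress-responsive kinase, 147 and 79.3 CPM (0.89 ± 0.17, 0.00294). NR4A3 and KLF4 made up the 4, with calls that ended without some libraries. NR4A3 lost its call without FMD_LO replicate 1 or 2 or CTR_LO replicate 2 or 3 (adjusted p up to 0.0778), and KLF4 without FMD_LO replicate 1 or CTR_LO replicate 1 or 2 (up to 0.132). Textbook AP-1 targets had 1 of 16 higher and 1 lower. Of their fold changes 11 of 16 were positive (median 0.27), against 46.8% of all genes. In FMD_HI over CTR_HI 14 of 16 were positive (median 0.56), against 49% of all genes, with 0 called by edgeR. Their summed levels overlapped there, with 9684 to 13669 CPM in FMD_HI and 7265 to 15154 CPM in CTR_HI. In FMD_LO over FMD_HI 2 of 16 were positive (median -0.39), against 43.1% of all genes, with 1 called lower. The list was not tested as a set. PLAU, the urokinase protease, averaged 470 CPM in FMD_LO and 950 CPM in CTR_LO (-1.02 ± 0.21, 0.0053), and MMP9 averaged 15.7 and 1.34 CPM, with its call lost without FMD_LO replicate 1 or 2 or CTR_LO replicate 1 or 3 (up to 0.0958).

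Genes of the integrated stress response, which ATF3 is known to belong to, had 3 of 11 members higher in FMD_LO and 0 lower (median 0.13). CEBPB, a leucine zipper partner of ATF4, averaged 1007 CPM in FMD_LO and 471 CPM in CTR_LO (1.10 ± 0.21, adjusted p 0.00302). With reads of either strand counted, its log2 fold change was 0.46 with an adjusted p of 0.16, which ended the call. VLDLR averaged 14.5 CPM in FMD_LO and 4.61 CPM in CTR_LO (1.65 ± 0.29, adjusted p 0.00171). CHAC1 averaged 3.68 and 1.9 CPM at an adjusted p of 0.0496, which reached 0.155 when single libraries were left out and passed in 5 of those 12 fits. The inducible heat shock genes, a further group that responds to handling and stress, had 1 of 12 higher and 0 lower (median -0.11). That gene, DNAJA1, averaged 383 and 247 CPM (0.63 ± 0.16, 0.016) and lost its call without FMD_LO replicate 2 or CTR_LO replicate 1 or 3 (up to 0.0752).

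**Figure D5:**
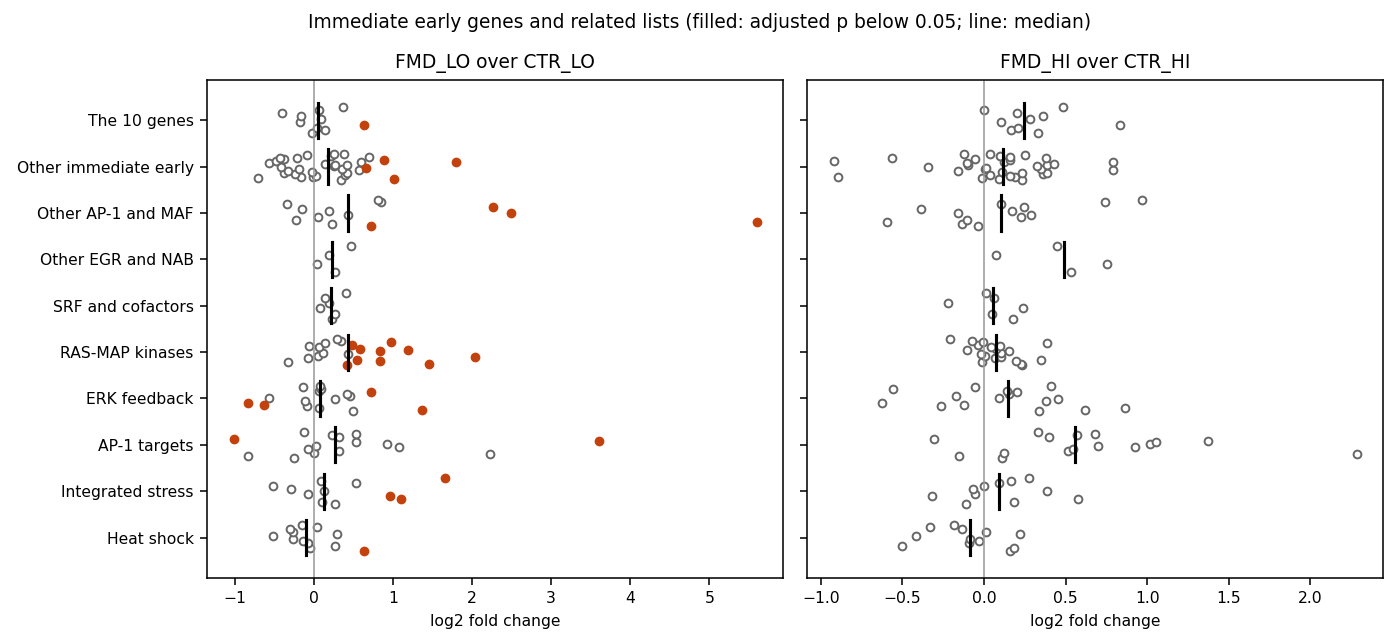
Log2 fold change of every gene of the 10 and of the 9 related lists, for FMD_LO over CTR_LO (left) and FMD_HI over CTR_HI (right, on its own scale), with filled points for an adjusted p below 0.05 and a bar at each list's median. Calls on the left panel are most numerous among RAS and MAP kinases (10 of 20), and the right panel has none.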

How the data were processed

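Polyadenylated RNA of sorted tumour cells was sequenced with a stranded TruSeq kit, per the labels' protocols. The deposited values are raw counts per gene symbol, made by the authors with STAR on hg38, per the submitters' processing notes. The STAR version, the annotation release and any removal of mouse reads are not given in the sources used here. Column 4, reads of the reverse strand, was used, and the opposite strand held 1.59% to 1.75% of the reads in both columns. No row was left out for naming no gene.

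One edgeR 4.0.16 quasi-likelihood fit (limma 3.58.1, R 4.3.3, TMM scaling, default count filter by group, robust) of 12 libraries in 4 groups of 3, with 8 residual degrees of freedom, gave 7 comparisons. The threshold was 0.05 on p-values adjusted by Benjamini-Hochberg over the 15461 genes tested (11014 were not). Standard errors are approximate: the size of the log2 fold change over the root of its F. The fit was also run on simulated data with independent libraries and changes in FMD_LO only, a setting without pairs that cannot speak to paired libraries. Replicates of a group were distinct libraries. Exon length per gene is the union of exons of GENCODE 29, and promoters and positions are RefSeq's on GRCh38.p14. Profiles and deviations use log2 CPM with a prior count of 2.

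The 10 genes and the 13 other lists were chosen with earlier results of these data known. All 10 genes were named in every comparison, and from each other list up to 3 genes with the smallest p among those called, or else its gene with the smallest p, of which part is printed. Some genes of the lists are not reported here. DUSP5 and KLF4 were added after their values were seen, as were the FMD_HI values of DUSP6. For FOS, JUN, EGR1 and ATF3 the 3 genes of nearest profile outside the set were named. Alternatives were leaving out each of 12 libraries, a replicate block, DESeq2 1.42.0, RLE scaling, thinning to the smallest library, fitting the compared groups alone, reads of either strand and no count filter. Added after the data were seen were a replicate block within diet, a block among the fasting-mimicking diet libraries only and the fasting-mimicking diet libraries alone with a block. The pairing is read from the data: within that diet all 3 same-numbered pairs had deviations correlated above 0.1 (0.285 to 0.485), which was not so for the control diet (0.037 to 0.522) or across diets.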

Additional observations from a re-analysis of the deposited data

Results flagged for a closer look

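FOSL1 and IER2 passed a test of the difference in diet response between the 2 sorted populations when replicate number was a block within diet (edgeR), a fit that called 11% of all genes (2.04% negative). FOSL1 was lower by this measure, its fold change in CD24-low cells (FMD_LO over CTR_LO) minus that in CD24-high cells (FMD_HI over CTR_HI) being -0.54 on the log2 scale, with an adjusted p of 0.0111. For IER2 the difference was -0.59, with an adjusted p of 0.00848. These calls rest on a block among the control libraries, whose same-numbered correlations were 0.445, 0.522 and 0.037. The pairing of control replicate 3 was thus not shown. With the block among the fasting-mimicking diet libraries only, neither passed (adjusted p 0.107 for FOSL1 and 0.255 for IER2). Leaving out any one control pair kept both calls (adjusted p up to 0.0303 and 0.0261). Leaving out fasting-mimicking diet pair 2 ended both calls (0.0709 and 0.0589), and leaving out pair 3 ended that of FOSL1 (0.0756). Without a block neither passed (-0.53, adjusted p 0.645, and -0.61, adjusted p 0.366).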

How the results depend on the processing

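Over 7 comparisons and 22 alternatives, no gene of the 10 that passed in either fit changed direction, and 127 fold changes that passed in neither fit changed sign. Of the number of the 10 genes called, FMD_LO over CTR_LO gave 1, and 0 to 1 when single libraries were left out. FMD over CTR in both populations gave 2, and 1 to 2 with single libraries left out, 1 with reads of either strand and 1 with the replicate block. FMD_HI over CTR_HI gave 1 with DESeq2, against 0. With the replicate block within diet, FMD_LO over FMD_HI gave 2, LO over HI in both diets 2 and the interaction 2, each against 0, and the fasting-mimicking diet libraries alone with the block gave 4. With the block in the fasting-mimicking diet only, FMD_LO over FMD_HI gave 1 and the other comparisons of populations 0. The block across all 12 libraries changed no other call among the 10. Across diets, same-numbered libraries correlated at most 0.0824, and the 5 of 18 same-numbered pairs that correlated above 0.1 were all within a diet. Taken over all other groups, the same diet included, 11 of 12 libraries correlated best with one of their own number.

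Counts over all genes moved by over 1.5 times as follows. FMD_LO over CTR_LO called 2533 and 1562 to 2795 with single libraries left out. FMD over CTR in both populations called 1711 and 969 to 2041. FMD_LO over FMD_HI called 2163, 4201 with the block within diet and 5870 in the fasting-mimicking diet libraries alone. LO over HI in both diets called 1164 and 2549 with that block. The interaction called 638, 1156 with DESeq2, 1702 with that block and 380 to 767 with single libraries left out, and FMD_HI over CTR_HI 0, 1 with no count filter or the replicate block and 75 with DESeq2. CEBPB had a log2 fold change of 0.46 with reads of either strand (adjusted p 0.16), against 1.10, which ended its call. The causes were not tested. With 3 libraries a group, a difference of the size seen in JUNB could not be held apart from the spread of single libraries.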

Other observations

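Under the fasting-mimicking diet, related genes outside the set also differed between the populations. Of the 132 in 9 lists, 22 were higher and 4 lower in FMD_LO than in FMD_HI, where 12.2% of all genes were higher and 1.84% lower. The 4 lower ones were EGR4, DUSP2, EPHA2 and PLAU. DUSP2, a nuclear phosphatase of MAP kinases that is itself an immediate early gene, had 480, 464 and 361 CPM in FMD_LO, against 712, 855 and 618 CPM in FMD_HI (log2 -0.74 ± 0.17, adjusted p 0.00803, edgeR), and it kept its call under all 22 alternatives run for this comparison. It did not pass the test between the populations of control tumours, with 513, 389 and 345 CPM in CTR_LO and 405, 422 and 373 CPM in CTR_HI (0.06 ± 0.17, adjusted p 1). By edgeR neither the interaction nor FMD_HI over CTR_HI called DUSP2, so a dependence of this difference on diet was not shown.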
